A study of Mus musculus with 8 samples.

Results

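Transcription in nocodazole-arrested mitosis was described by comparing the mitotic PRO-seq signal of each gene with its signal in asynchronous cells. In PRO-seq, polymerases engaged on DNA run on in isolated nuclei and add labelled nucleotides to the RNA they are making, so the signal over a gene reads ongoing transcription and not stored RNA. The comparison used 4 of the 8 samples of the series, 2 mitotic and 2 asynchronous. Of 14861 genes in the deposited table, 14444 had a ratio of the mitotic to the asynchronous value and were described. The other genes had a mean signal below 0.5 or a value listed at 0 in mitosis or in asynchronous cells.

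All groups came from 1 clonal line of mouse induced pluripotent stem cells with the FUCCI2 reporter, which marks cell cycle phases by fluorescence. All were grown on irradiated feeder cells in KO-DMEM with FBS, LIF, a MEK inhibitor and a GSK3 inhibitor. Mitotic cells were held for 6 h in 200 ng/ml nocodazole, which depolymerises microtubules, were shaken off and were collected at 0 h. Asynchronous cells had no nocodazole, so mitosis and exposure to the drug cannot be told apart here. The word kept names only the ratio of mitotic to asynchronous signal below. Whether a signal persisted into mitosis or arose during the arrest was not tested. Further mitotic cells, given 1 h or 3 h without the drug after shake-off, serve here as a separate readout. Each group had 2 libraries but 1 combined column of values, so no difference below has a replicate check, an SD or a p-value. Signal from cells in mitosis and from any interphase cells in the harvest cannot be told apart in a combined column.

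In mitosis chromosomes condense, many transcription factors and most RNA polymerase II leave chromatin, and nascent RNA synthesis drops. The comparison asks which genes still carry engaged polymerases. Immediate early genes such as Fos and Jun are short genes that signals switch on without new protein synthesis, and genes such as Cdkn1a and Plk2 are switched on by the stress-responsive factor p53. In stem cells under LIF and MEK inhibition, growth factor signalling to the Fos and Egr genes is held low.

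The deposited values are a normalized signal with an unstated scale and unknown depth. They summed to 16863 in the mitotic column and 309144 in the asynchronous column, and the mitotic total was 5.45% of the asynchronous one. How far this gap reflects the authors' scaling was not tested. Each gene is described by the percentage of its asynchronous signal that it kept in mitosis, which moves with the scaling of a column. For this reason lists of genes are set against the median gene. A common scaling of a column does not change a gene's ratio to the median gene. Pluripotency markers were present in both columns, with 17 of 18 in the table, and summed to 85.0 in mitosis and 1977 in asynchronous cells. Of 30 fibroblast markers, which would come from feeder cells, 18 were in the table and summed to 25.4 in mitosis, against 262 in asynchronous cells, and S100a4 and Twist1 were listed at 0 in mitosis. The fibroblast sum kept 9.70% and the pluripotency sum 4.30%. Without Ctgf, a choice made after seeing the data, the fibroblast sum kept 5.83%, and the median over the 16 fibroblast markers with a ratio was 5.84%. The part of feeder cells in the results below was not tested.

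At the median over genes 5.36% of the asynchronous signal was kept, an 18.7-fold lower level. The quartiles were 4.03% and 7.13%, and the 10th and 90th percentiles were 2.89% and 10.4%. Of the 14444 genes, 14359 (99.4%) were at least 2-fold lower in mitosis and 5 (0.0346%) were at least 2-fold higher. The reduction was close to uniform over genes, with 63.5% of them within 1.5-fold and 82.5% within 2-fold of the median gene. Genes that kept at least 2-fold more than the median gene, that is at least 10.7%, are called high retainers below. They numbered 1357 (9.39% of genes). Genes that kept at most 50% of the median gene, that is at most 2.68%, are called low retainers and numbered 1170 (8.1% of genes). A further count of the tails gave 261 genes that kept at least 25%, 85 that kept over 50% and 120 that kept at most 1%. Across genes, which are not independent replicates, the Spearman correlation of mitotic with asynchronous signal was 0.903, and with the 1 h release it was 0.906.

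**Figure D1:**
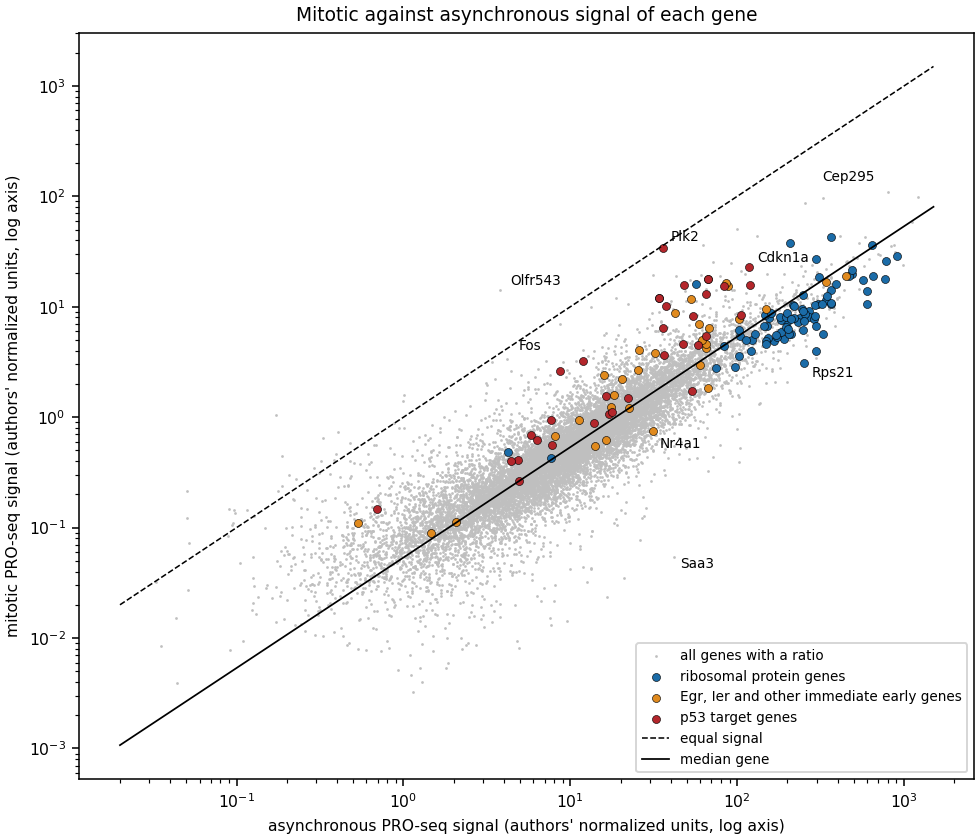
Mitotic against asynchronous PRO-seq signal of each gene with a ratio, both in the authors' normalized units on log axes, with ribosomal protein genes, Egr, Ier and other immediate early genes and p53 target genes in colour. The solid line marks the median gene, which kept 5.36%, and the dashed line equal signal. Plk2 lies just under the dashed line, most p53 target genes lie above the solid line and most ribosomal protein genes lie below it.

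The genes with the largest retention are given first. Predicted and clone names were left out, and 6881 genes had a mean signal over the 4 columns that reached the median. Among these the 12 that kept most ran from 375% to 61.5%. The mean includes the release columns, so a gene can reach the median through them. Olfr543, an olfactory receptor gene with its start at chr7:102477902, had 14.2 in the mitotic column and 3.79 in the asynchronous one. Mab21l1, which starts within the gene Nbea, had 0.646 against 0.328, and Rfpl4 had 0.587 against 0.480. Both were low in the compared columns and reached the median signal only through the releases. At 1 h and 3 h Mab21l1 had 15.0 and 54.9, and Rfpl4 had 33.9 and 3.63. Gstp3, a glutathione S-transferase, had 17.9 against 17.5. These 4 genes were listed at or above their asynchronous level in mitosis. Plk2, a polo-like kinase gene and p53 target at chr13:110395048, followed with 34.3 against 36.1 and kept 95.0%. Bex3 kept 93.9% and Coq10b, for a coenzyme Q-binding protein, kept 80.2%. Utrn, which encodes the dystrophin relative utrophin, kept 75.1%, but the start used for it lies 56339 bases inside the annotated gene. Gpr3, for a receptor that signals without ligand, kept 64.8%. Sp1, whose factor binds GC boxes in promoters, had 11.9 against 18.7 and kept 63.6%. Cd79a, a B-cell receptor gene, kept 62.1%, and Med11, for a subunit of the Mediator complex, had 19.3 against 31.4 and kept 61.5%.

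The 5 genes at least 2-fold higher in mitosis were Nmrk2, Lrit1, Olfr543, Dynlrb2 and C3ar1. Apart from Olfr543 they were low in both columns, and Nmrk2 had 1.05 in mitosis against 0.172. The asynchronous values of Lrit1 and Dynlrb2 were 0.0507 and 0.0505. Ratios of such low values cannot be given an error here, since the depth is unknown.

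At the other end, the acute-phase gene Saa3, for a serum amyloid, kept 0.131%, the lowest share of any gene with a ratio, with 0.0543 against 41.6. Ift140, for a transport protein of cilia, kept 0.144%, with 0.0237 against 16.5. Arl11 kept 0.168%, Trp53i11 kept 0.295% and Grrp1 kept 0.385%. Msmp, which starts within Rgp1, kept 0.460%, and the scavenger receptor gene Ssc4d kept 0.482%. Gnat1, the rod transducin subunit, had 0.527 against 103.6 and kept 0.509%. Slc25a47, for a mitochondrial carrier, had 0.151 against 28.2. Pnma5 kept 0.554%, Rnf113a2, which starts within Bbof1, kept 0.603%, and the receptor gene Gpr132 kept 0.606%. The starts used for Saa3, Arl11, Grrp1, Ssc4d, Gnat1, Pnma5 and Gpr132 lie more than 1 kb inside their annotated genes.

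A further 326 genes (2.20%) were listed at exactly 0 in mitosis and have no percentage. Their median asynchronous signal was 2.16, against 9.69 for genes with a ratio, and 57 of them were above that median. Had they kept the median percentage, 172 of them would have been listed above 0.1 in mitosis. They had short annotated spans, with a median of 5396 bases against 21985 for genes with a ratio. Pglyrp1 (203.9 in asynchronous cells), Nme3 (148.3), Oxa1l (120.2) and the ribonucleotide reductase gene Rrm2 (27.2) were among them. Of the 326 genes 63 were also listed at 0 in a release column, Pglyrp1 at 1 h and Nme3 at 3 h, so an exact 0 is not read as absent transcription. At the opposite extreme, 84 genes were listed at 0 in asynchronous cells, 40 of them in both columns.

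The promoters of the genes that the next results turn on are shown here, from 250 bases before to 50 after the RefSeq start on GRCm38.p6, each 5′ to 3′ on the gene's own strand. The first 4 belong to high retainers from the p53, AP-1 and immediate early groups, and Nr4a1 is a low retainer from the same immediate early group, whose start used here lies 12944 bases inside its annotated gene. In these 5 the capitals mark TGACG, the half-site of the cyclic AMP response element (CRE), and TATAAA, the TATA box, on either strand. The full CRE is TGACGTCA, which is 2 overlapping half-sites.
Plk2, chr13:110394794-110395093, plus strand: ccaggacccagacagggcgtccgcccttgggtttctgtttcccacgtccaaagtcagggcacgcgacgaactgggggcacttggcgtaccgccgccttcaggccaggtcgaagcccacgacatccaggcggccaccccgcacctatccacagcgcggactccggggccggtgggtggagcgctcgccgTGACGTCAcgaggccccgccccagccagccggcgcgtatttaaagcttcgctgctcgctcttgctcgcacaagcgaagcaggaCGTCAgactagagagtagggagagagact
Btg2, chr1:134079106-134079405, minus strand: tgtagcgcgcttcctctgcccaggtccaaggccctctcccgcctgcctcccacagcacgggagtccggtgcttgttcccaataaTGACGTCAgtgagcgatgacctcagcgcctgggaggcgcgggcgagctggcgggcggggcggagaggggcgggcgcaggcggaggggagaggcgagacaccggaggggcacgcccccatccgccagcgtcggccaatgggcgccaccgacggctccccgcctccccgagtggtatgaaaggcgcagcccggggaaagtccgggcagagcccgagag
Dusp1, chr17:26508423-26508722, minus strand: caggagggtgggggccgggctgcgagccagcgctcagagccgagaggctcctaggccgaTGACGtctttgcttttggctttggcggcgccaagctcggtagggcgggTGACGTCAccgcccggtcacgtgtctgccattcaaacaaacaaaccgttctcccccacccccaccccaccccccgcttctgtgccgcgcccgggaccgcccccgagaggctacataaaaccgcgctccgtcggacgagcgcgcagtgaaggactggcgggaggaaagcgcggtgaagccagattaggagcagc
Fos, chr12:85473640-85473939, plus strand: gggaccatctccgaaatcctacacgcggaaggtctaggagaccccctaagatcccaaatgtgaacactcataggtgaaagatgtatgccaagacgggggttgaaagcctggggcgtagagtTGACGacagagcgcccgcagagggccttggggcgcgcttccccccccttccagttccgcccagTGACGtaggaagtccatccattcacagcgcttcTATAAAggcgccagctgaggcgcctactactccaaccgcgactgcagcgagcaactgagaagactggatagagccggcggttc
Nr4a1, chr15:101266596-101266895, plus strand: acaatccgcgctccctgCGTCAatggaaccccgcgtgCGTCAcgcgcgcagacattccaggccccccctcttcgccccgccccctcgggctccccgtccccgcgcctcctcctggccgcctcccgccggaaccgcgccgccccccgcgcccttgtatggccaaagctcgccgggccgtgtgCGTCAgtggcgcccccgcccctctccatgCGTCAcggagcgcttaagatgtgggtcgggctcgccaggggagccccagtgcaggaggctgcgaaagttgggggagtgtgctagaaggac
Plk2, Btg2 and Dusp1 each hold a full CRE, Fos holds 2 half-sites and a TATA box, and Nr4a1 holds 4 half-sites. Counting from the RefSeq start, the full CRE begins at -62 in Plk2, -166 in Btg2 and -143 in Dusp1, and the TATA box of Fos at -33. Of 10415 promoters with a ratio, 31.5% held a CRE half-site, 3.36% a full CRE and 6.79% a TATA box. The printed promoters are single examples. A full CRE stood in 2 of 25 promoters of p53 targets, 1 of 12 of the AP-1 list and 3 of 23 of the immediate early list. A CRE half-site stood in 9 of the 25 (36%), 8 of the 12 (66.7%) and 13 of the 23 (56.5%). These are matches of letters and do not show that a factor was bound.

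Targets of p53, which drive arrest, repair and cell death, were the list with the highest median. The lists and their members were chosen with earlier results of these data known, so their order is a description only. All 32 members in the table had a ratio, and their median was 10.9% against 5.36% for all genes. Of the 32, 16 were high retainers and none was a low retainer, against 9.39% and 8.1% of all genes. After Plk2, the highest were Rps27l with 12.1 in mitosis and 33.9 in asynchronous cells, a ribosomal protein paralogue that kept 35.7%, and Ccng1, for cyclin G1, with 15.8 against 48.0. Ccng1 kept 33.0%. Cdkn1a, for the cyclin-dependent kinase inhibitor p21, had 23.1 against 117.4 and kept 19.7%. The starts used for Rps27l and Cdkn1a lie 1542 and 2802 bases inside their annotated genes. The death-promoting genes Pmaip1 (Noxa), Bax and Bbc3 (Puma) kept 27.0%, 20.2% and 17.8%. Btg2, an antiproliferative gene, kept 26.4%. The lowest were Tigar, a regulator of sugar metabolism, with 1.74 against 53.8 (3.23%), Sesn1 at 5.30% and Ephx1 at 6.20%.

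The list of p53 and its feedback regulators had a median of 8.96% over 15 genes. Of these, 4 (26.7%) were high retainers and none was a low one, against 9.39% and 8.1% of all genes. Mdm2, whose product degrades p53, had 9.81 against 38.4 and kept 25.5%. Its relative Mdm4 kept 17.9% and Rchy1, another ubiquitin ligase for p53, kept 20.6%. Trp53, which encodes p53, kept 8.26%, with 7.39 in mitosis and 89.5 in asynchronous cells. The upstream kinase genes Atm (5.52%) and Atr (4.99%) were near the median gene. Among the BCL2 family, 4 of 16 members (25%) were high retainers, namely Pmaip1, Bax, Bbc3 and Bcl2l11 (Bim), which kept 26.7% and starts within Acoxl. The other family members, including the survival genes Mcl1 at 4.88% and Bcl2l1 at 7.49%, did not reach that limit.

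Letters of a p53 half-site (10 letters, by name) occurred in 5 of 25 promoters of the p53 targets (20%), against 6.78% of all promoters. Wrap53 and Trp53 are a divergent pair, with starts 104 bases apart on chromosome 11. Wrap53, for a telomerase assembly factor, had 25.5 in mitosis and 72.0 in asynchronous cells and kept 35.4%, which is 4.29-fold more than Trp53. The Wrap53 promoter is printed with its p53 half-site in capitals. The pair was chosen after its values were seen, and its difference has no error.
Wrap53, chr11:69580201-69580500, minus strand: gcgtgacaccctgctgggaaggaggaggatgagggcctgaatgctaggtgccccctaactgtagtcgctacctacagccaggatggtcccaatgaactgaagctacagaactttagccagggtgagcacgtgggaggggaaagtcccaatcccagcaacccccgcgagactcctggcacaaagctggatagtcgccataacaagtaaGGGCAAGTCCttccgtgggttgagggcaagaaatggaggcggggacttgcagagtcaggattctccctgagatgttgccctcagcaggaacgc

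Genes of the AP-1 factors, which pair Fos and Jun proteins on DNA, had a median of 10.3% over 14 members. Of these, 5 (35.7%) were high retainers and none was a low one, against 9.39% and 8.1% of all genes. Fos had 3.19 in mitosis and 10.9 in asynchronous cells and kept 29.4%. Atf3, a stress-induced partner of Jun, had 1.80 against 6.13 and also kept 29.4%. Jun had 13.9 against 48.3 and kept 28.9%, and Jund kept 20.03%. Fos, Atf3 and Jun thus lay close together, at asynchronous signals from 6.13 to 48.3. Fosl2 kept 11.4%. Junb, at 108.6 in asynchronous cells, kept 9.35%. Jdp2, a repressor of AP-1, kept 2.87%, Mafg 4.18% and Fosl1 4.24%, which were the lowest.

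Egr, Ier and other immediate early genes had a median of 8.21% over 32 members. Of these, 11 (34.4%) were high retainers and 1 (3.1%) was a low one, against 9.39% and 8.1% of all genes. Btg2 (26.4%), Dusp1 (22.3%), a phosphatase that turns off MAP kinases, and Egr3 (20.6%) were the highest, although Egr3 had only 0.535 in asynchronous cells. Egr1, a zinc finger factor induced by growth factors, had 2.43 against 16.0 and kept 15.2%. The YAP targets Cyr61 and Ctgf, which fibroblasts also express, kept 19.2% and 17.4%. Ctgf made up 15.3 of the summed fibroblast marker signal of 25.4 in mitosis. Not all members were retained. Ier2 had the highest asynchronous signal of the list at 449.6 and kept 4.20%, Srf kept 3.78%, Ier3 2.79% and Nr4a1, an orphan nuclear receptor gene, 2.40%, with 0.747 against 31.2. Of the 5 promoters printed above, that of Nr4a1 holds the most CRE half-sites. TATA boxes were found in 9 of 23 promoters of this list (39.1%) against 6.79% of all, and CRE half-sites in 13 of 23 (56.5%) against 31.5%. CArG boxes, the sites of serum response factor, were found in 3 of 23 against 1.24% of all promoters.

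Other signal-response lists were more mixed. Feedback genes of ERK signalling had a median of 6.41%. Of 20 genes, 6 (30%) were high and 1 (5%) was low, against 9.39% and 8.1% of all genes. Dusp8 kept 29.5% and Dusp2 28.9%, both from asynchronous signals under 2, while Dusp6 and Spry1 each kept 3.81% and Dusp7 kept 1.65%. Targets of serum response factor and actin cytoskeleton genes had a median of 6.54%, with Zyx at 18.3% and Actb, for beta-actin, at 5.16% (11.9 against 230.2). Among Nodal, BMP and Id genes 5 of 24 (20.8%) were high, led by Id1 at 14.6% and Id2 at 14.1%. In the ATF4 and unfolded protein response list, 3 of 32 (9.4%) were high, near the share of all genes, and 7 (21.9%) were low. Sesn2 (15.2%), Dnajb9 (13.8%) and Ddit4 (13.3%) led it, and Sesn2 and Ddit4 are also on the p53 list. The glutathione-degrading gene Chac1 (0.868%), the serine synthesis gene Phgdh (1.20%) and the amino acid transporter gene Slc7a3 (1.21%) were its lowest. Nupr1, at 45.8 in asynchronous cells, was listed at 0 in mitosis.

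**Figure D2:**
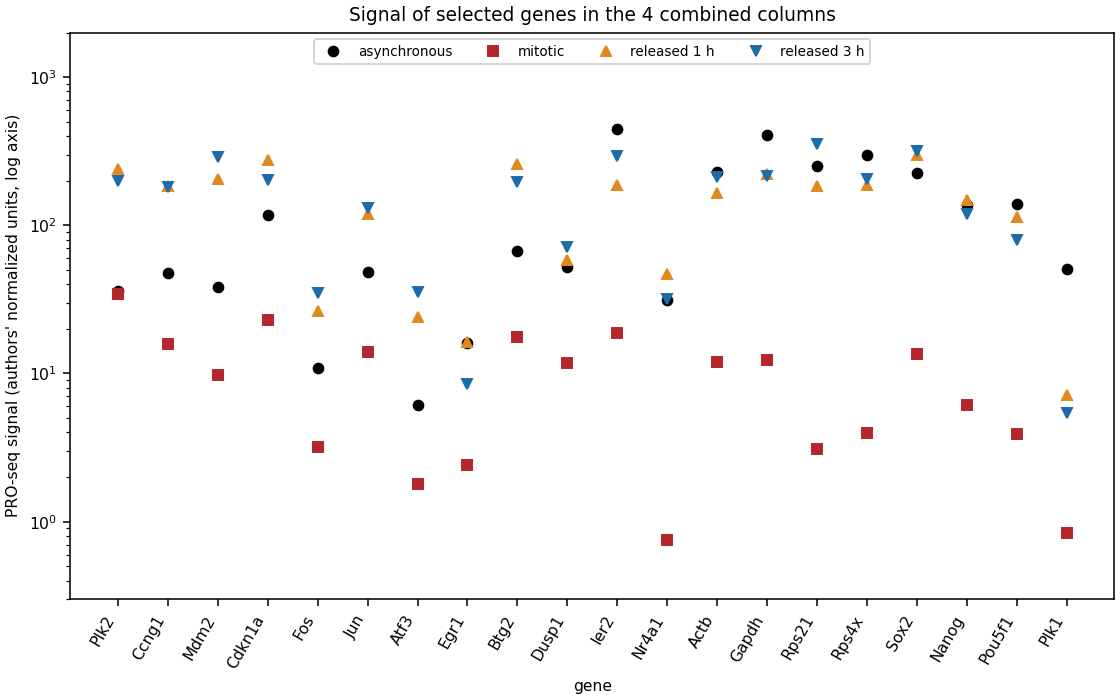
PRO-seq signal in the authors' normalized units on a log axis, for 20 genes in the 4 combined columns, 1 point per column. In mitosis Plk2 stood at 34.3, next to its asynchronous 36.1, and Ccng1, Mdm2, Fos, Jun and Atf3 stood closer to their asynchronous points than Nr4a1, Rps21, Rps4x and Plk1 did.

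The release columns give the same genes' signal after mitosis. Plk2 had 239.2 at 1 h and 198.4 at 3 h, Mdm2 206.8 and 287.8, Cdkn1a 277.2 and 202.3, and Ccng1 185.2 and 182.4. Each of these 4 genes was above its asynchronous signal in both release columns. The release columns were also higher over all genes, with medians of 11.8 at 1 h and 10.9 at 3 h against 9.43 in asynchronous cells. How many other genes were above in both was not counted. Fos had 26.4 and 35.0, Jun 119.0 and 130.9, and Atf3 23.9 and 35.4, also above their asynchronous signals. Egr1 had 16.2 at 1 h and 8.52 at 3 h, against 16.0 in asynchronous cells.

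Ribosomal protein genes kept least of all lists. Their median was 3.48% over 81 genes, with 9 low (11.1%) and 5 high (6.17%) retainers, against 8.1% and 9.39% of all genes. The list's tails were thus near those of all genes, and its median was lower. Ribosomal protein genes included many of the highest asynchronous signals. In the highest decile of asynchronous signal, the median over all genes was 4.63% and 11.1% were low retainers. Rps21 had 3.07 in mitosis and 252.4 in asynchronous cells and kept 1.22%. Rps4x kept 1.33%, with 3.96 against 298.0, and Rps2 kept 1.74%. The high retainers were Rps27l, Rpl8 (28.2%, 16.1 against 56.9), Rpl19 (18.2%), Rpl41 (11.8%) and Rpl3l (11.3%). Rps27l is the p53 target named above and Rpl3l is a muscle paralogue, so 3 canonical ribosomal protein genes were high retainers. The Rps21 promoter is printed with the core of ETS factor sites, CCGGAAG, in capitals. That core occurred on either strand in 25 of 62 promoters of this list (40.3%) against 18.1% of all.
Rps21, chr2:180257129-180257428, plus strand: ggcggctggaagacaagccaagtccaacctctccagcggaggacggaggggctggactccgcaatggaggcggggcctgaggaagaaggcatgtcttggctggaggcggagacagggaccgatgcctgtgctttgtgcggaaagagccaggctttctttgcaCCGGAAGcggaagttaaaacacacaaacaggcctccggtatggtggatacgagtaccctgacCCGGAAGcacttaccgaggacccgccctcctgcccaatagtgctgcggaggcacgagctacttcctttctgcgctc

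Glycolysis and glucose transport genes had the second-lowest median, 4.06% over 24 genes. This list held no high and 4 low retainers (16.7%), against 9.39% and 8.1% of all genes. Gapdh had 12.4 against 405.4 and kept 3.05%. Ldha, for lactate dehydrogenase A, kept 2.19%, Gpi1 2.44%, Pgk1 2.45% and Eno3 1.46%. The highest of the list, the lactate transporter gene Slc16a1, kept 6.44%. The other metabolic lists did not share this range throughout. Cholesterol synthesis genes had a median of 4.51%, with Scap (14.9%) high and Ebp (0.690%) lowest. Oxidative phosphorylation genes, at 5.45%, had 8 high and 8 low retainers of 91 (8.79% each). Among them were Cox6b2 at 29.3% (96.4 against 328.7), Ndufa7 at 19.2% and Atp5k at 1.31%. Mitochondrial ribosomal protein genes had a median of 5.11%.

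Genes for the transcription machinery lay at or slightly above the median gene. The positive elongation factor P-TEFb releases paused polymerase, and its kinase gene Cdk9 kept 10.6% and its cyclin gene Ccnt1 10.5%, both just inside 2-fold of the median gene. The list of P-TEFb, elongation and pausing factors had a median of 6.55%. Of 34 genes, 4 (11.8%) were high and none low, against 9.39% and 8.1% of all genes. Paf1, of the elongation complex of that name, had 11.6 against 54.7 and kept 21.2%, Ell3 kept 15.3% and Supt4a 13.2%. The bromodomain gene Brd2 had 43.3 against 411.3 and kept 10.5%, with a start that lies within H2-DMa. Genes for RNA polymerase II, Mediator and Integrator had a median of 5.33% over 97 genes. Med11 stood apart from its list, in which the second-highest gene, Ints13, kept 17.5%. Splicing factor genes had a median of 6.10% over 130 genes, led by Srsf5 (17.7%) and Snrpd3 (17.01%), and their lowest was Snrnp25 at 1.40%.

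Among genes whose products act in mitosis, 2 lists held no high retainer and others did. Lists of unlike genes also held none, such as histone acetylation and chromatin remodelling (56 genes), glycolysis (24) and aminoacyl-tRNA synthetases (23). Of 40 genes for mitotic cyclins, kinases and their regulators, none was high and 2 (5%) were low, with a median of 4.84%. Over all genes these shares were 9.39% and 8.1%. Ccnb1, for cyclin B1, had 4.05 against 67.4 and kept 6.01%. Cdk1 kept 3.45% and Aurka 3.50%. Plk1, for the main mitotic polo-like kinase, had 0.844 against 51.1 and kept 1.65%, the lowest of the list and far below its relative Plk2. The anaphase-promoting complex list had neither high nor low retainers among 19 genes, and kinetochore and spindle checkpoint genes had 4 high (8.89%, against 9.39% of all genes) and 2 low of 45, from Cenpi at 28.7% to Ndc80 at 1.30%. DNA replication genes had a median of 4.65%, with 1 of 57 high (1.75%) and 8 low (14.0%). Mcm7, of the replicative helicase, kept 19.8%, while Pole3 (1.27%), the licensing gene Cdc6 (1.48%) and Clspn (1.65%) were lowest. Replication histone genes had a median of 6.40%. Hist1h1c, a linker histone gene with the highest asynchronous signal of the table, had 98.9 against 1218 and kept 8.13%, and Hist1h2bh kept 1.62%.

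Pluripotency genes followed the median gene or lay under it. The naive pluripotency list had a median of 4.95% over 37 genes. It held 1 high (2.70%) and 3 low (8.11%) retainers, against 9.39% and 8.1% of all genes. Sox2 had 13.6 in mitosis and 225.8 in asynchronous cells and kept 6.01%. Nanog kept 4.50%, with 6.14 against 136.4, and Pou5f1, which encodes Oct4, kept 2.81%, with 3.90 against 138.7. Klf4 kept 7.29% and Klf2 2.79%. The only high retainer on the list was the p53 target Trp53inp1 at 27.5%, and Tcl1 (1.08%), Fgf4 (2.20%) and Tdh (2.63%) were the low ones. Formative and primed factors had a median of 4.47%. Wnt8a led them at 56.6% from an asynchronous signal of 0.593, and Otx2 kept 2.33%. Polycomb and DNA methylation genes had a median of 4.40% over 41 genes, from Bmi1 at 15.4% to Cbx2 at 1.63%. Myc had 1.23 against 17.5 and kept 7.01%. Col1a1, a collagen gene of fibroblasts, had 0.0865 against 5.44 and kept 1.59%.

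Over all 57 lists, which were chosen with earlier results of these data known, 50 had a median within 1.25-fold of the median gene. The 5 above that limit were p53 targets, AP-1 and Atf3, p53 and its feedback regulators, the immediate early genes and the chemosensory receptors, and the 2 below were glycolysis and the cytosolic ribosomal proteins. Some genes are on several of these lists. Ccng1 is on both p53 lists and Btg2 is on the p53 and the immediate early lists. Set against genes of the same decile of mean signal in place of all genes, the medians of p53 targets and ribosomal proteins differed from their level-matched median gene by 1.04 and -0.62 on the log2 scale. Without that adjustment they differed by 1.02 and -0.62.

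**Figure D3:**
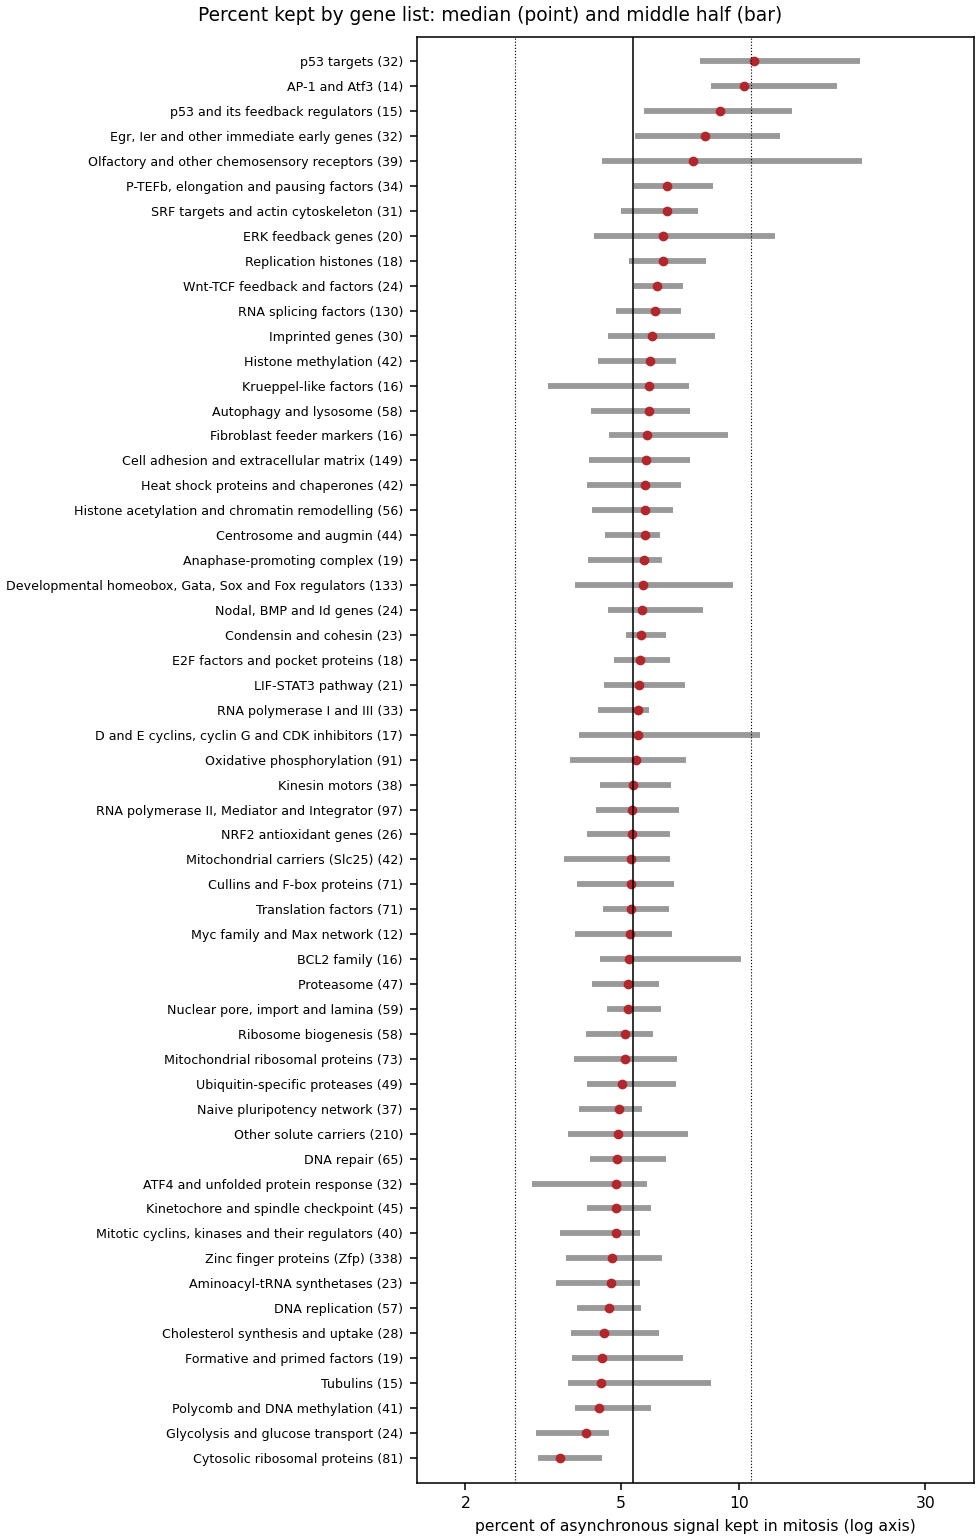
Percent of asynchronous signal kept in mitosis, on a log axis, for 57 gene lists with the number of members that have a ratio in brackets. Points are list medians and bars run from the lower to the upper quartile over members, the solid line is the median gene at 5.36% and dotted lines are 2-fold to either side. Most lists sit on the solid line, with p53 targets at 10.9% and ribosomal proteins at 3.48% at the ends.

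By mean signal and by span, the spread of percentages varied more than the median did. In the lowest decile of mean signal over the 4 columns the median was 6.33% and 24.6% of genes were high retainers. In the highest decile these were 5.34% and 9.41%. Grouped by the mean of the release columns, which share no value with the ratio, the medians were 5.77% in the lowest and 5.56% in the highest decile. Grouped by asynchronous signal, which is the denominator of the ratio, they were 8.16% in the lowest and 4.63% in the highest decile. High retainers were 35.9% and 5.05% of these deciles, and low retainers 6.16% and 11.1%. By annotated span, the median was 5.08% in the shortest decile (median span 2945 bases) and 5.89% in the longest. Low retainers made up 14.9% of the shortest and 1.86% of the longest decile, and high retainers 16.3% and 7.15%. In the upper level group alone, low retainers were 13.4% of the shortest and 2.32% of the longest decile, so the same order held at higher signal. For 17.2% of placed genes the start used was more than 1 kb inside the annotated gene, and their median, 5.37%, matched that of the others. Both tails were larger for them, with 10.96% high and 9.34% low retainers, against 8.98% and 7.75% of the others. Besides those marked elsewhere, genes named here with such a start include Rpl19, Rps2, Ldha, Eno3, Phgdh, Slc7a3, Mafg and Srf. Further ones are Ell3, Brd2, Mcm7, Actb, Otx2 and Zfp955b.

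**Figure D4:**
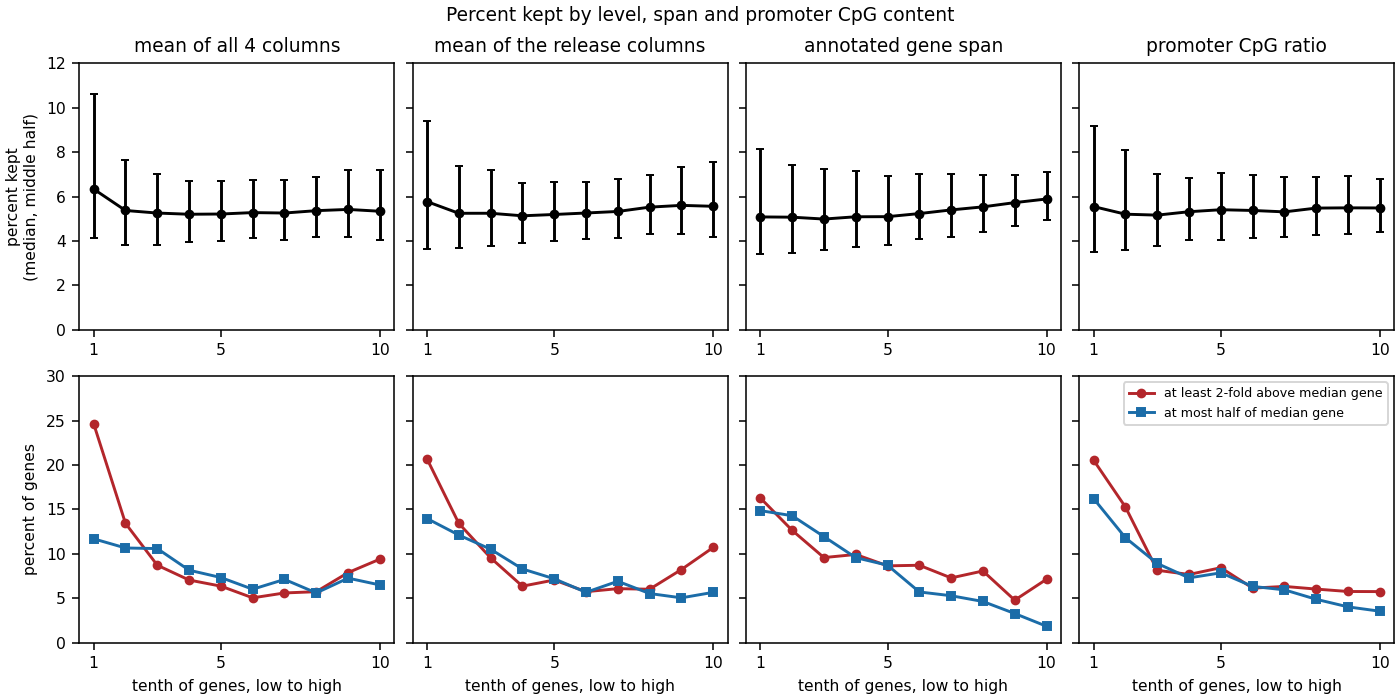
Upper panels show the median (point) and quartiles (bars) of percent kept in deciles of genes ordered by mean signal, mean release signal, annotated gene span and promoter CpG ratio, and lower panels the percentage of genes at least 2-fold above the median gene or at most 50% of it. Medians stay between 4.99% and 6.33% in all deciles shown, while both tails narrow toward longer genes and CpG-rich promoters.

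Promoters poor in CpG had wider tails. In the decile with the lowest ratio of observed to expected CpG, 20.5% of genes were high retainers and 16.2% low, and in the decile with the highest ratio 5.76% and 3.55% were. CpG-poor promoters also had lower signal, with a median of 4.69 against 12.1, and the part of signal level in this difference was not tested. Of 707 genes with a TATA box, 15.4% were high retainers, against 8.55% without one, and 10.2% against 7.51% were low. A CArG box stood in 129 promoters, of which 15.5% were high retainers, against 8.93% without one. For the full CRE, the difference went the other way, with 7.71% high retainers among 350 genes against 9.06%. The GC box, GGGCGG, stood in 65.5% of promoters, with 7.51% high retainers against 11.9% without it. For the CCAAT box, CCAAT, these values were 9.27% and 8.86%. The other motifs gave these shares of high retainers with and without a match. They were 11.98% and 8.87% for the AP-1 site TGANTCA, 8.28% and 9.10% for the E-box CACGTG, 10.3% and 8.85% for the cell cycle element CHR (TTTGAA) and 5.45% and 9.81% for the ETS core. They were 11.8% and 8.82% for the p53 half-site, 5.70% and 9.54% for the NRF1 site and 4.25% and 9.14% for the YY1 site, each given by name. A CRE half-site gave 8.24% and 9.37%. Shares of low retainers with and without a match were 5.43% and 7.77% for the full CRE and 6.54% and 9.88% for the GC box. These shares were 6.03% and 8.06% for the ETS core, 5.28% and 8.07% for the NRF1 site and 2.32% and 7.83% for the YY1 site. Both tails were thus smaller with these motifs. The low share was slightly higher with a match for the CCAAT box, the AP-1 site and the CHR. The median percentage was 5.87% with a full CRE and 5.37% without. Matches were sought on both strands, and a CRE counts as half-sites too.

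Neighbouring genes were compared because reads near a shared start could be counted for more than 1 gene. Among 781 pairs that start within 1 kb of each other and run apart, the Spearman correlation of percent kept was 0.206, and 20.2% of pairs differed by at least 2-fold. Among divergent pairs over 10 and up to 50 kb apart these were 0.0694 and 31.6%. In 157 tandem pairs within 1 kb, which run the same way and can share reads, the correlation was 0.648. Besides Wrap53 and Trp53, 3 divergent pairs chosen after their values were seen are among those furthest apart. Hspa1a, the inducible Hsp70 gene, kept 83.8% (0.792 against 0.944), and its partner Hspa1l kept 3.69%. Cib1, for a calcium- and integrin-binding protein, kept 57.9% (36.2 against 62.5), and Gdpgp1 kept 5.79%. Cramp1l kept 5.57% while Ift140, which starts 611 bases away, kept 0.144%.

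**Figure D5:**
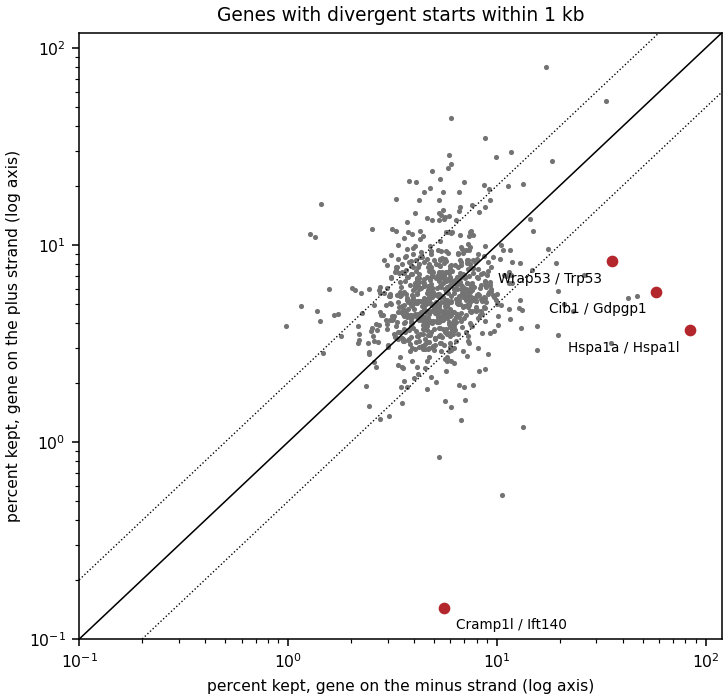
Percent kept by the minus-strand gene (x) and the plus-strand gene (y) of 781 pairs with divergent starts within 1 kb, on log axes, with equality as a solid line and 2-fold to either side dotted. Red points are Wrap53 and Trp53, Cib1 and Gdpgp1, Hspa1a and Hspa1l, and Cramp1l and Ift140, whose partners differ by 4.29-fold, 10.01-fold, 22.7-fold and 38.7-fold.

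The ratio of the 3 h to the 1 h release shares no column with percent kept. It is not fully independent, because the minimum signal and the level groups use the mean over all 4 columns. The lowest decile of that mean had 24.6% high and 11.7% low retainers. The part of low signal in the differences below was not tested. Its median log2 value was 0.06 for 1345 high retainers, -0.13 for genes between the limits and 0.27 for low retainers. In the upper level group these were -0.24, -0.30 and -0.02. Both tails therefore had a higher median than the genes between them, and 25.7% of low retainers and 23.3% of high retainers were at least 2-fold higher at 3 h than at 1 h, against 13.2% of the rest. At the same time 15.8% of high retainers were at least 2-fold lower at 3 h, against 6.29% of low retainers and 6.85% of the rest. In the upper level group these shares of high retainers were 8.66% for a rise and 15.7% for a fall of that size. In the same group they were 5.08% and 8.04% of genes between the limits, and 10.4% and 7.66% of low retainers. With 1 column per group these differences have no error.

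The largest mitotic signals in the table belonged to genes that are also high in asynchronous cells. No source used here says whether values are divided by gene length, so this order is one of deposited signals only. Cep295, for a centriole protein, had 108.9 in mitosis and 804.9 in asynchronous cells, with its start 39836 bases inside the annotated gene. Hist1h1c and Cox6b2 followed, then B430305J03Rik (86.7 against 253.6), whose start lies within the neighbouring Rap2b (44.0 against 130.6), and their percentages, 34.2% and 33.7%, were close to each other. Gm10762 had 59.0 against 1118. Tnfrsf4, a T-cell costimulatory receptor gene, had 51.1 against 99.7 and kept 51.2%. Brd2, the translation initiation gene Eif4a1 (43.1 against 584.5), Rpl41 (43.0 against 363.1), Ptma (37.6 against 538.9) and Rpl19 (37.4 against 205.8) completed the 12. Tnfrsf4 was the only one of the 12 to keep over 50%.

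By chromosome, the median ran from 5.07% on chromosome 17 to 5.96% on chromosome 18, and the X chromosome stood at 5.78%. Chromosome 18 also had the longest median span of all, 37484 bases, and chromosome 17 the shortest, 15149.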

How the data were processed

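PRO-seq was described in mitotic and asynchronous cells, with the 1 h and 3 h releases as support. The deposited values are 1 normalized signal per gene and group, made by the authors. Per the submitters' processing notes, the tools were Bowtie2, cutadapt, SAMtools and Picard, and the build was GRCm38 (mm10). No source used here gives the scaling, the way libraries were combined, the counting of reads or the use of strand. The early and late G1 columns were taken, by meaning, as the releases of 1 h and 3 h. The authors' class labels were not used.

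Percent kept is 100 times the mitotic over the asynchronous signal, with no pseudocount, for genes with a mean signal over the 4 columns of at least 0.5 and no 0 in either. With 1 column per group no test was possible. Depth is unknown, so no counting interval is given. Spans and promoters come from RefSeq on GRCm38.p6, matched by symbol: 14401 directly, 206 by synonym, 254 not at all, and 10665 had a promoter. A total of 13 motifs were searched on both strands. Python 3.11.15, pandas 2.3.3, numpy 2.4.6 and scipy 1.17.1 were used. The counting was tested on simulated shifts.

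Named genes are the 12 highest and lowest percentages at or above the median signal without predicted names, up to 3 members at either end of a list, 18 genes given always and the 12 highest mitotic signals; further list members were chosen after their values were seen. Some genes the rule names are not reported here. Members and lists were chosen with earlier results of these data known. The alternatives were equal medians, quantile normalization, other minimum signals, genes at 0 kept, short spans left out, pseudocounts and medians of genes of the same level.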

Additional observations from a re-analysis of the deposited data

How the results depend on the processing

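The median percentage, the counts, the list medians and the genes named were recomputed under the alternatives planned for each, single genes under equal medians, quantile normalization and both pseudocounts. Deciles, motif shares, gene pairs and the release ratio were not recomputed. No replicate could be left out. No paired analysis was possible because the deposited table has 1 combined column per group. With equal medians the median percentage was 103.4%, 1065 genes were at least 2-fold lower in mitosis and 1464 at least 2-fold higher, so the size of the mitotic reduction rests on the deposited scaling. Genes at least 2-fold higher numbered 2 with a minimum mean signal of 2.5, 3 with a pseudocount of 0.1 and 2 with one of 0.5. High retainers numbered 904 with the minimum of 2.5 and 2494 with the pseudocount of 0.5, which brought the median to 10.6%. Other counts, and all those of low retainers, stayed within 1.5-fold of those given. Lists and genes were compared as log2 values relative to the median gene. No list at least 1.25-fold from it switched sides. With a pseudocount of 0.5, 8 lists moved by over 1.5-fold, and the p53 targets ranged from 0.65 to 1.05 over the alternatives, AP-1 and Atf3 from 0.48 to 0.98, the immediate early genes from 0.14 to 0.66 and the ribosomal proteins from -1.51 to -0.59. Of 181 genes named, 129 moved by over 1.5-fold with the pseudocount of 0.5, 15 with 0.1 and 3 with quantile normalization. A further 12 switched sides with the pseudocount of 0.5, namely Bcl2l1 (-0.11), Eif4a1 (-0.51), Gpr132 (0.27), Hist1h1c (-0.38), Junb (-0.12), Klf4 (-0.48), Myc (-0.15), Olfr52 (1.42), Olfr836 (1.86), Ptma (-0.59), Trp53 (-0.28) and Zfp772 (0.81). A pseudocount of 0.1 switched Olfr52 (0.22) and Olfr836 (0.81), and quantile normalization switched Hist1h1c (-0.11). A pseudocount draws low signals toward equal values by its construction, and for Hist1h1c under quantile normalization the cause was not tested. Low signal in mitosis, with a median of 0.489, limits what can be said of single low genes.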

Other observations

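Beyond the response genes, the list of olfactory and other chemosensory receptors had the widest spread, with a median of 7.62% and 4 genes listed at 0 in mitosis. Of 39 genes with a ratio, 17 (43.6%) were high and 6 (15.4%) low retainers, against 9.39% and 8.1% of all genes. Olfr543 was its extreme at 375%. Olfr544 kept 43.9% and Olfr545 12.3%, at signals of 1.66 and 0.806 in asynchronous cells. Olfr90 kept 22.2%, with 6.82 against 30.8, and Olfr91 kept 22.8%. Olfr94, with 3.996 against 176.6, kept 2.26%, and Olfr52 (0.683%) and Olfr836 (0.996%) were lowest. Most of these receptors were low in both columns, and the lowest decile of mean signal over all genes had 24.6% high retainers. Homeobox, Gata, Sox and Fox regulators of development, most of them low in these cells, had 28 high (21.1%) and 17 low (12.8%) retainers of 133, against 9.39% and 8.1% of all genes, at a median asynchronous signal of 4.42. Nkx1-1 (83.7%), Foxb2 (53.3%) and Lhx1 (38.6%) were highest, from asynchronous signals of 0.218, 0.873 and 0.444. Hoxb9 kept 17.2% at a higher level, with 4.75 against 27.5. Goosecoid (Gsc, 11.7 in asynchronous cells) and Gata2 (8.80) were listed at 0 in mitosis. Zinc finger genes of the Zfp family leaned the other way, with 14 high (4.14%) and 39 low (11.5%) of 338, from Zfp955b at 55.5% to Zfp772 at 0.359%.

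Several lists close to the median gene held a few members far from it. Esco2, for the acetyltransferase that fixes sister chromatid cohesion, had 6.98 in mitosis and 8.62 in asynchronous cells and kept 80.9%, and the second of the condensin and cohesin list, Hdac8, kept 9.97%. Haus3, of the augmin complex that nucleates spindle microtubules, kept 63.3% (2.23 against 3.53), Haus2 kept 19.9% and the other augmin genes in the list 6.56% or less. The start of Haus3 lies within Poln and that of Haus2 within Lrrc57. Among kinesins, 3 of 38 were high retainers (7.89%, against 9.39% of all genes). These were Kif19a at 23.3% (0.167 against 0.717), Kifc1 at 22.5% (3.59 against 16.0) and Kif5b at 15.02%. Tubb4b, a beta-tubulin gene, kept 27.3% (24.9 against 91.2), whereas Tubb5 kept 2.54% (9.71 against 382.1) and Tuba1b 2.81%. Prmt5, an arginine methyltransferase gene, kept 25.1% (6.28 against 25.1), and the second of the histone methylation list, Kdm4b, kept 8.32%. Slc34a3 kept 179% from an asynchronous signal of 0.406, and Slc19a2, a thiamine transporter gene, kept 27.6% (4.28 against 15.5). Hspa1a, by contrast with most chaperone genes, kept 83.8%, while the constitutive Hspa8 kept 3.25% (18.2 against 560.3).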
